A study of Mus musculus with 18 samples.

Results

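The 37 genes described here form the lysosome and TFEB network, a list chosen by gene name: 3 transcription factors, 7 lysosomal membrane proteins, 10 proteases, 6 glycosidases, 5 proteins of lipid handling and enzyme activation, and 6 parts of the vacuolar proton pump. All 37 were found among the 24052 genes counted. They were measured by 3′-end sequencing of polyadenylated RNA in 18 libraries of C57BL/6 mouse bone marrow-derived macrophages, grown from marrow with M-CSF at 20 ng/ml, which drives their differentiation. In experiment 1 all cells were wild type, in 4 groups of 3 libraries. DI+LPS cells were kept for 12 h with dimethyl itaconate at 0.25 mM, an ester that enters cells more readily than itaconate itself, and LPS (bacterial endotoxin, 100 ng/ml) followed for 4 h. LPS cells received vehicle and then the same LPS, DI cells the ester with no LPS, and Unst cells vehicle with no LPS. In experiment 2, 3 libraries of Irg1-/- cells were set beside 3 of WT cells, and both genotypes were stimulated for 24 h with interferon gamma (50 ng/ml) plus LPS (100 ng/ml), so that no unstimulated cells and no cells without interferon were compared there. Irg1, listed as Acod1, encodes the enzyme that makes itaconate from a citric acid cycle intermediate. The labels do not say whether replicates came from separate animals or cultures, so p-values measure only the spread between these samples, which may be technical.

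Lysosomes digest proteins, sugars and lipids in a lumen that the vacuolar ATPase keeps acid, and macrophages use them to break down what they engulf. TFEB, TFE3 and MITF are related helix-loop-helix factors that switch on many lysosomal and autophagy genes together. They are held in the cytoplasm while the kinase complex mTORC1 is active on the lysosomal surface and enter the nucleus when it is not, so their activity need not follow their mRNA. The promoter letters they bind are an E-box, CACGTG, often within a longer palindrome known as the CLEAR element.

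RefSeq windows of build GRCm38.p6, from 250 bases before to 50 after the transcription start, were at hand for 31 of the 37 genes. Atp6v0d2, Ctsh, Npc1, Atp6v1h, Ctsb and Atp6v1b2 are named only. CACGTG, which reads the same on both strands, occurred in 11 of the 31 windows (35.5%), against 8.09% of the windows of 27025 genes. The longer form TCACGTG, which contains it and was searched on both strands, occurred in 10 (32.3%, against 4.29%). TCATGTG, a variant core of the same factors, occurred in 5 (16.1%, against 4.31%). These are matches of letters, not measured binding. Examples are shown because they carry the letters by which the group is known, with CACGTG in capitals and each run written 5′ to 3′ on the gene's strand.
Lamp1 (chr8:13159088-13159160, plus strand): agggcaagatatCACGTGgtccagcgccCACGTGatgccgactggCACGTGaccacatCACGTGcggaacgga
Mcoln1 (chr8:3500436-3500491, plus strand): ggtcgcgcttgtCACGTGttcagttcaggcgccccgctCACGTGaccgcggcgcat
Ctsd (chr7:142387908-142388077, minus strand): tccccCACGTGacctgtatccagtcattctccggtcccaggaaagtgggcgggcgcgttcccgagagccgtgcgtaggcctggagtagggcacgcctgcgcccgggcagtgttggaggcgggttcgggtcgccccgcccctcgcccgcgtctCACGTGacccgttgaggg
Gla (chrX:134601182-134601244, minus strand): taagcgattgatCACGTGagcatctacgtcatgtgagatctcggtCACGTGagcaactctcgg
Glb1 (chr9:114401018-114401047, plus strand): ctgcttctgagtCACGTGgcctacagaggc

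Lamp1 held 4 copies, at 61, 45, 28 and 15 bases before the start, and Mcoln1, Ctsd, Gla and Ctsa held 2 each. Ctsc, the gene of the list whose level moved in most comparisons, had no CACGTG. The stretch of its window that lies before the annotated gene body is shown with the matches to TTCNNNGAA, the letter pattern of STAT factors, and to GAGGAAGT (in either orientation), a core bound by the macrophage factor PU.1, in capitals; both were searched on both strands.
Ctsc (chr7:88277835-88278023, plus strand): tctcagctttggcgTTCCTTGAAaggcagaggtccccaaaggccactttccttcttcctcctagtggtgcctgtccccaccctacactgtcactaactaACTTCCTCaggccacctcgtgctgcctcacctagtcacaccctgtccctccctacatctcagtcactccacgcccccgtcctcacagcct
Ctsc was the 1 gene of the 31 with TTCNNNGAA (3.23%, against 9.55% of all windows). GAGGAAGT occurred in 4 of the 31 (12.9%, against 3.69%), in Ctsc, Ctss, Gla and Gusb.

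Total counts were 955718 to 7629669 per library in experiment 1 and 3088644 to 5491684 in experiment 2. Levels are TMM-scaled CPM, a gene's counts relative to the adjusted total of its library. Changes are log2 fold changes with their standard error from edgeR's quasi-likelihood test, called at a Benjamini-Hochberg adjusted p under 0.05 over all genes tested in a comparison. Acod1 was at 28.5, 14.9 and 31.5 CPM in Irg1-/- libraries, against 4142, 4677 and 4237 CPM in WT libraries (log2 -7.43 ± 0.32, adjusted p = 4.8e-07). Il6, a cytokine induced by endotoxin, was higher in LPS than in Unst libraries (log2 11.43 ± 0.76, adjusted p = 4.7e-09). All 13 macrophage markers looked at had counts in every group, while B cell markers summed to at most 2.82 CPM and T and NK cell markers to at most 1.33 CPM in a library. The 11 neutrophil and granulocyte progenitor markers summed to 192 to 424 CPM in experiment 1 and 76.3 to 113 CPM in experiment 2, the 8 stromal markers to 41.6 to 105 CPM and 18.0 to 36.2 CPM, the 9 dendritic cell markers to 10.4 to 32.7 CPM and 21.1 to 39.2 CPM, and the 6 mast cell and basophil markers to at most 3.94 CPM. The LPS libraries stood apart: their log2 CPM correlated at 0.782 to 0.890 with each other, against 0.933 to 0.970 within the other 5 groups. LPS replicate 3 was the shallowest library, with the peroxiredoxin Prdx1 at 17.6% of all its counts, against 3.81% and 3.28% in LPS replicates 1 and 2. Prdx1 took 9.27%, 8.70% and 14.1% of the counts of DI+LPS libraries. Its share was 5.11%, 6.55% and 4.70% in DI libraries and 1.34%, 2.03% and 1.49% in Unst libraries. Library totals in place of TMM moved the median log2 change of all genes from -0.24 to -1.17 in LPS over Unst, -0.05 to -0.25 in DI over Unst, 0.13 to 0.28 in DI+LPS over LPS, -0.06 to -0.65 in DI+LPS over DI and 0.17 to 0.52 in the interaction. In bulk RNA, fewer cells of a type and less RNA per cell cannot be told apart.

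The 37 genes together took 3.07% ± 0.38 (SD, n = 3) of the counts of DI+LPS libraries, 2.37% ± 0.25 of LPS libraries, 4.99% ± 0.34 of DI libraries and 5.58% ± 0.35 of Unst libraries. The ranges of the LPS and Unst libraries did not overlap, nor did those of DI+LPS and DI libraries. On the TMM scale the gap was smaller, with sums of 37665 ± 4882 CPM in DI+LPS, 33365 ± 3553 CPM in LPS, 40808 ± 4233 CPM in DI and 39805 ± 3101 CPM in Unst libraries. On that scale the ranges overlapped, at 30112 to 37156 CPM in LPS and 36502 to 42653 CPM in Unst libraries. Those of DI+LPS (33721 to 43125 CPM) and DI libraries (36864 to 45280 CPM) overlapped too. In experiment 2 the share was 3.05% ± 0.13 in Irg1-/- and 3.26% ± 0.21 in WT libraries, lower in Irg1-/- in 3 of 3 same-numbered pairs, and 2 WT libraries lay within the Irg1-/- range. The TMM-scaled sums were 30126 to 30249 CPM in Irg1-/- and 32309.9 to 34450.3 CPM in WT libraries, which did not overlap.

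**Figure D1:**
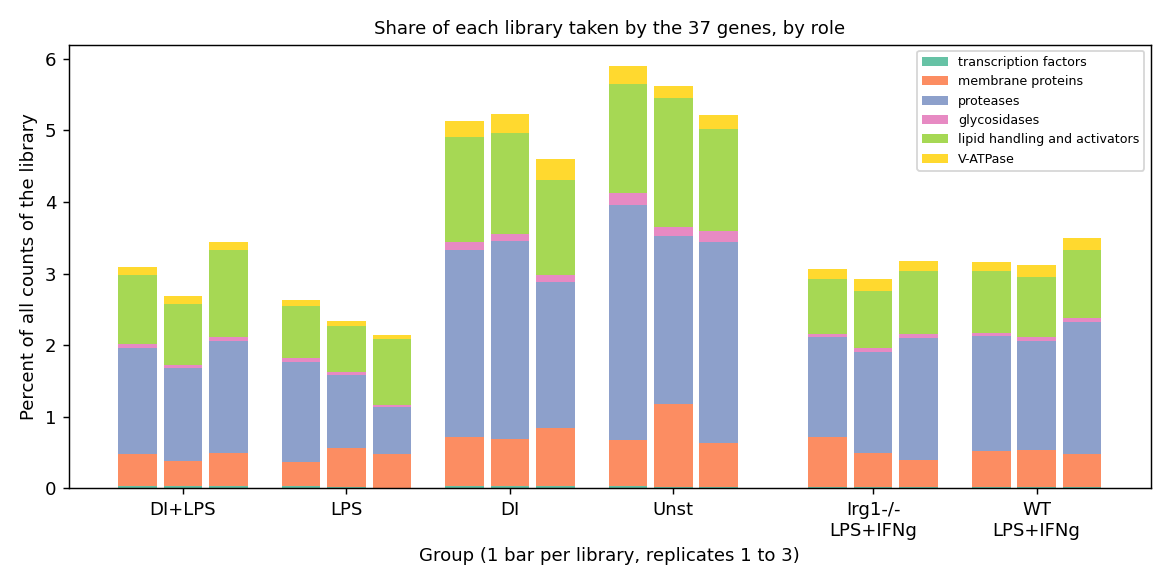
Share of each library's counts taken by the 37 genes, in percent (vertical axis), 1 bar per library, stacked by the role of the genes, for the 4 groups of experiment 1 and the 2 of experiment 2. The LPS libraries reach 2.14% to 2.63%, and the Unst libraries 5.21% to 5.90%.

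The effect of LPS on cells without the ester was given by LPS against Unst libraries. Ctsc and Mitf rose, and Tfeb, Atp6v0d2, Lipa, Gpnmb, Ctsb and 4 of the 6 glycosidases fell. That is 2 higher and 9 lower of 37 tested (29.7%), while 34.3% of all 10285 genes were called, 16.0% higher and 18.4% lower. The median log2 change of the 37 was -0.51, against -0.24 over all genes, and 29 of the 37 lay below 0, against 58.1% of all genes.

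The transcription factors moved apart. Tfeb (Entrez gene 21425, chromosome 17 from 47737037 to 47792416), the factor after which the network is named, was at 2.94, 2.76 and 1.24 CPM in DI+LPS libraries, 3.98, 6.19 and 0 CPM in LPS libraries, 14.7, 25.3 and 18.1 CPM in DI libraries and 19.5, 44.3 and 15.1 CPM in Unst libraries. Every library given LPS lay below every library without it. Counts were low, with 12, 11 and 0 reads in the LPS libraries. Tfeb fell with LPS in vehicle-treated cells (log2 -2.65 ± 0.60, adjusted p = 0.0024) and in ester-treated cells (log2 -3.02 ± 0.58, adjusted p = 0.00088). The contrasts use different libraries, but both tests take their spread from all 12. Mitf (Entrez gene 17342, chromosome 6 from 97807002 to 98021360), its relative best known from melanocytes and osteoclasts, was at 335, 333 and 261 CPM in DI+LPS, 334, 230.0 and 105 CPM in LPS, 133, 200.3 and 198 CPM in DI and 106, 63.7 and 82.4 CPM in Unst libraries. It rose in LPS over Unst libraries (log2 1.42 ± 0.36, adjusted p = 0.0056), although LPS replicate 3 lay within the Unst range. Without LPS replicate 1 the change of Mitf was 0.98 with an adjusted p of 0.052, and with library totals 0.51 with an adjusted p of 0.29. Tfe3, the third member, was at 37.5, 24.7 and 23.6 CPM in LPS and 44.1, 38.5 and 42.3 CPM in Unst libraries and was not called (log2 -0.51 ± 0.33, adjusted p = 0.26).

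Among the proteases, Ctsc (Entrez gene 13032, chromosome 7 from 88278024 to 88315861), the dipeptidyl peptidase that activates granule serine proteases, was at 892, 817 and 1062 CPM in LPS libraries, against 107, 127 and 109 CPM in Unst libraries (log2 3.01 ± 0.36, adjusted p = 3.7e-06). No other gene of the 37 had a larger change in this comparison, and the groups lay far apart. Ctsb, a cysteine protease of broad range, was at 3993, 3204 and 2354 CPM in LPS and 6994, 4859 and 6884 CPM in Unst libraries (log2 -0.97 ± 0.31, adjusted p = 0.023). The remaining 8 proteases were not called. They were Ctsa, a serine carboxypeptidase that also protects Neu1 and Glb1, the aspartyl protease Ctsd, the aminopeptidase Ctsh, the collagen-cleaving Ctsk, the endopeptidases Ctsl and Ctss, the carboxypeptidase Ctsz and the asparaginyl endopeptidase Lgmn. Their changes ran from -1.50 in Ctsk, which had reads in 1 of the 3 LPS libraries, to 0.46 in Ctsz.

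The glycosidases, which take sugars off glycoproteins and glycolipids, had 0 members higher and 4 of 6 lower, with a median of -0.80. Neu1, the sialidase, was at 29.8, 41.6 and 29.1 CPM in LPS and 76.1, 82.7 and 65.6 CPM in Unst libraries (log2 -1.14 ± 0.30, adjusted p = 0.0066). Glb1, the beta-galactosidase, was at 46.1, 32.6 and 34.5 CPM in LPS and 72.5, 90.9 and 73.6 CPM in Unst libraries (log2 -1.05 ± 0.29, adjusted p = 0.0098); its gene body overlaps Tmppe. Neither gene's groups overlapped. Gusb, the beta-glucuronidase, and Hexa, a chain of beta-hexosaminidase, also fell (log2 -0.84 and -0.77, adjusted p = 0.027 and 0.037). Gla, the alpha-galactosidase, and Gaa, the acid alpha-glucosidase, were not called (log2 -0.60 and -0.20).

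Of the lipid group, Lipa (Entrez gene 16889, chromosome 19 from 34492316 to 34527474), the acid lipase that frees cholesterol and fatty acids from engulfed lipoproteins, was at 363, 299.7 and 98.2 CPM in LPS and 865, 383 and 838 CPM in Unst libraries (log2 -1.44 ± 0.44, adjusted p = 0.017). The lowest Unst library stood just above the highest LPS library. Psap, the saposin precursor, the cholesterol exporters Npc1 and Npc2, and Grn, progranulin, were not called (log2 -0.38, -0.59, 0.46 and 0.73). Among membrane proteins, Gpnmb, a glycoprotein of lysosomes and melanosomes, fell (log2 -0.94 ± 0.30, adjusted p = 0.022), at 723, 502 and 684 CPM in LPS and 1495, 1022 and 1150.3 CPM in Unst libraries. The calcium channel Mcoln1, Lamp1, Lamp2, the enzyme receptor Scarb2, the tetraspanin Cd63 and macrosialin, Cd68, were not called. In the proton pump, Atp6v0d2, a subunit form of osteoclasts and some macrophages, was at 174, 55.7 and 23.6 CPM in LPS and 602, 153 and 255 CPM in Unst libraries (log2 -1.94 ± 0.55, adjusted p = 0.011), and the other 5 genes were not called.

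Marker levels moved beside these results. The 13 macrophage markers summed to 5698 to 6150 CPM in LPS libraries and 6717 to 9415 CPM in Unst libraries. The 11 osteoclast markers, which include Atp6v0d2 and Ctsk, summed to 545 to 656 CPM in LPS and 380 to 729 CPM in Unst libraries, with Calcr and Oscar at 0 in both groups. Atp6v0d2 itself was at 174, 55.7 and 23.6 CPM in LPS and 602, 153 and 255 CPM in Unst libraries. The rest of the sum was higher in every LPS library than in every Unst library. Neutrophil markers summed to 285 to 421 CPM in LPS libraries, with Cxcr2, Mpo, Prtn3 and Retnlg at 0, and 335 to 406 CPM in Unst libraries, with none at 0. The part of these cells in the changes was not tested.

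Ctsc, Tfeb and Neu1 were called in all 18 alternative fits and Glb1 in 17. The other calls were each lost without at least 1 library: 3 lower genes were left without Unst replicate 1, where the adjusted p was 0.063 for Lipa, 0.074 for Ctsb, 0.093 for Gusb, 0.097 for Gpnmb, 0.098 for Atp6v0d2 and 0.14 for Hexa, and 5 without Unst replicate 3. Scaling by library totals, which moves the median of all genes to -1.17, gave 1 higher and 30 lower, but the members' median minus that of all genes was -0.27 by each of 3 scalings.

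**Figure D2:**
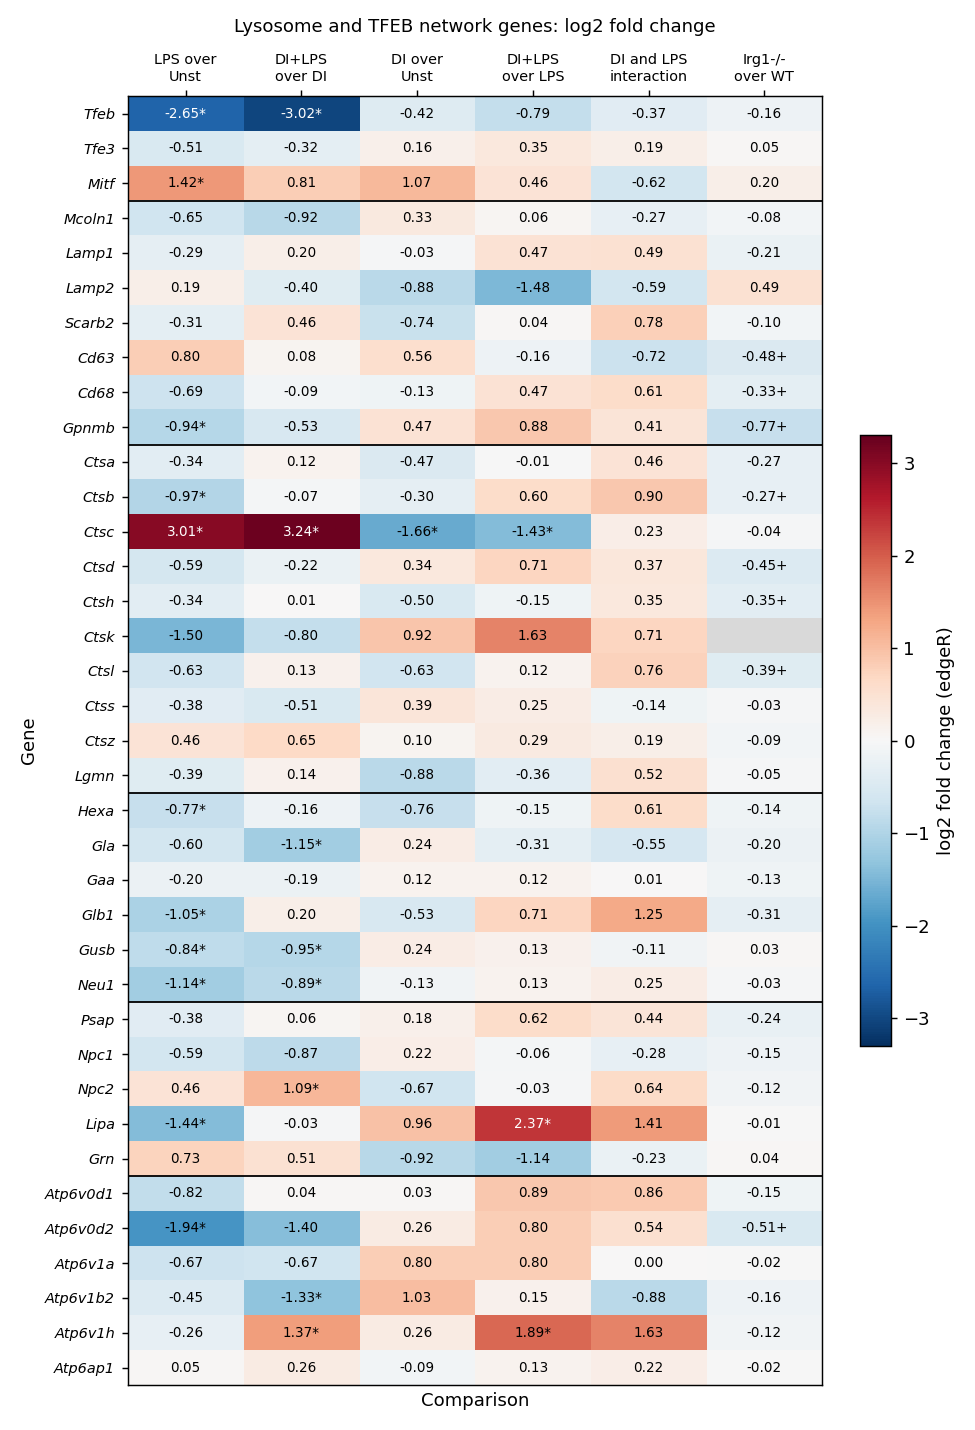
Log2 fold change of each of the 37 genes (rows, grouped by role with black lines) in the 6 comparisons (columns), with blue for lower and red for higher in the group named first. An asterisk marks an adjusted p under 0.05, a plus sign the same in the fit with replicate number as a block (Irg1-/- over WT), and grey a gene not tested; Ctsc is called in 4 columns, and the knockout column has 31 values below 0.

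The effect of the ester alone was given by DI against Unst libraries. Ctsc fell and no other gene of the 37 was called. That is 0 higher and 1 lower (2.70%), while 2.84% of all genes were called, 1.33% higher and 1.51% lower. Ctsc was at 42.3, 16.5 and 49.7 CPM in DI libraries, against 107, 127 and 109 CPM in Unst libraries (log2 -1.66 ± 0.34, adjusted p = 0.010), and was called in all 18 alternative fits. Mitf was at 133, 200.3 and 198 CPM in DI and 106, 63.7 and 82.4 CPM in Unst libraries, with every DI library above every Unst library, and was not called (log2 1.07 ± 0.36, adjusted p = 0.14). It was called without LPS replicate 3, a library outside the contrast that enters the shared spread (1 higher). The median of the 37 was 0.10 (-0.10 with library totals), against -0.05 over all genes, and 10 of the 37 had an unadjusted p under 0.05 (27.0%), against 13.8% of all genes. Markers moved beside the ester too: neutrophil markers summed to 192 to 294 CPM in DI and 335 to 406 CPM in Unst libraries, with none of the 11 at 0 in either group, and macrophage markers to 5094 to 6029 CPM in DI and 6717 to 9415 CPM in Unst libraries. Neither pair of ranges overlapped, and their part in the fall of Ctsc was not tested.

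The effect of prior ester on LPS-treated cells was given by DI+LPS against LPS libraries. Lipa and Atp6v1h rose and Ctsc fell, 2 higher and 1 lower of 37 (8.11%), while 15.9% of all genes were called, 8.38% higher and 7.53% lower. The median of the 37 was 0.13, the same as over all genes. Lipa was at 1369, 1361 and 1240.2 CPM in DI+LPS libraries, against 363, 299.7 and 98.2 CPM in LPS libraries (log2 2.37 ± 0.45, adjusted p = 0.0017). The groups did not overlap, and the DI+LPS libraries lay within the range of the DI libraries, at 1683, 726 and 1646 CPM. Atp6v1h (Entrez gene 108664, chromosome 1 from 5082978 to 5163213), the subunit that couples both sectors of the proton pump, was at 122, 93.5 and 170.5 CPM in DI+LPS libraries, against 43.8, 33.2 and 23.6 CPM in LPS libraries (log2 1.89 ± 0.34, adjusted p = 0.0012). It was at 50.3, 57.6 and 41.3 CPM in DI and 37.6, 54.1 and 33.4 CPM in Unst libraries, so the DI+LPS libraries stood above all others of the experiment.

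Ctsc was at 340.0, 345 and 346 CPM in DI+LPS libraries, against 892, 817 and 1062 CPM in LPS libraries (log2 -1.43 ± 0.34, adjusted p = 0.0078). The 3 DI+LPS values were close together and lay between the LPS and the Unst levels. All 3 calls held in all 18 alternative fits. The 6 proton-pump genes all had a change above 0 by each of 3 scalings, with a median of 0.80 against 0.13 over all genes; of these only Atp6v1h was called, and Atp6v0d1 and Atp6v1a stood at 0.89 and 0.80 (adjusted p = 0.079 and 0.11). Gpnmb was at 1358, 907 and 1254 CPM in DI+LPS and 723, 502 and 684 CPM in LPS libraries, which do not overlap, and just missed the threshold (log2 0.88 ± 0.30, adjusted p = 0.055). Tfeb was not called (log2 -0.79 ± 0.67, adjusted p = 0.47). Osteoclast markers summed to 327 to 384 CPM in DI+LPS and 545 to 656 CPM in LPS libraries, with Calcr and Oscar at 0 in both, and their part was not tested. Leaving out LPS replicate 1 raised the count to 5 higher, and LPS replicate 2 to 2 lower.

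LPS against no LPS in ester-treated cells was given by DI+LPS against DI libraries. Ctsc, Atp6v1h and Npc2 rose, and Tfeb, Atp6v1b2, Gla, Gusb and Neu1 fell, 3 higher and 5 lower of 37 (21.6%), while 18.9% of all genes were called, 11.4% higher and 7.56% lower. Ctsc was at 340.0, 345 and 346 CPM in DI+LPS libraries, against 42.3, 16.5 and 49.7 CPM in DI libraries (log2 3.24 ± 0.36, adjusted p = 2.6e-06). Atp6v1h rose in the same contrast (log2 1.37 ± 0.33, adjusted p = 0.0056). Npc2, which hands cholesterol to Npc1, was at 1464, 1239 and 2299 CPM in DI+LPS and 827, 824 and 696 CPM in DI libraries (log2 1.09 ± 0.29, adjusted p = 0.012). Gla was at 69.9, 78.2 and 78.1 CPM in DI+LPS and 169, 202 and 133 CPM in DI libraries (log2 -1.15 ± 0.29, adjusted p = 0.0084), with no overlap. Gusb and Neu1 stood at -0.95 and -0.89 (adjusted p = 0.019 and 0.037). The call of Atp6v1b2, a subunit of the catalytic ring, at 195, 214 and 296 CPM in DI+LPS and 361, 1085 and 324 CPM in DI libraries, rested on DI replicate 2: without it the change was -0.55 with an adjusted p of 0.39. Lipa, lower with LPS in vehicle-treated cells, stood at -0.03 here, and Glb1 at 0.20.

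Ctsc and Tfeb were called in all 18 alternative fits of this contrast. Each of the other calls was lost without at least 1 library: without DI+LPS replicate 1 only 1 lower gene was left, and without DI+LPS replicate 3 only 1 higher, with an adjusted p of 0.11 for Npc2 and 0.057 for Atp6v1h. Without DI replicate 2, DI replicate 3, DI+LPS replicate 2 and DI+LPS replicate 3 the lower genes numbered 2, 3, 3 and 2. Scaling by library totals gave 1 higher and 10 lower. Neutrophil markers summed to 302 to 424 CPM in DI+LPS libraries, with Mpo at 0, and 192 to 294 CPM in DI libraries. Dendritic cell markers summed to 28.5 to 31.1 CPM in DI+LPS, with Cd209a and Flt3 at 0, and 10.4 to 22.2 CPM in DI libraries, with Flt3 and Xcr1 at 0. Osteoclast markers, which include Atp6v0d2, summed to 327 to 384 CPM in DI+LPS and 451 to 626 CPM in DI libraries. Atp6v0d2 itself was at 180.4, 162 and 116 CPM in DI+LPS and 388, 314 and 510 CPM in DI libraries. It was the larger part of the DI sums, and the rest of the sum was on average higher in DI+LPS than in DI libraries. None of the summed ranges overlapped, and the part of these cells in the changes was not tested.

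**Figure D3:**
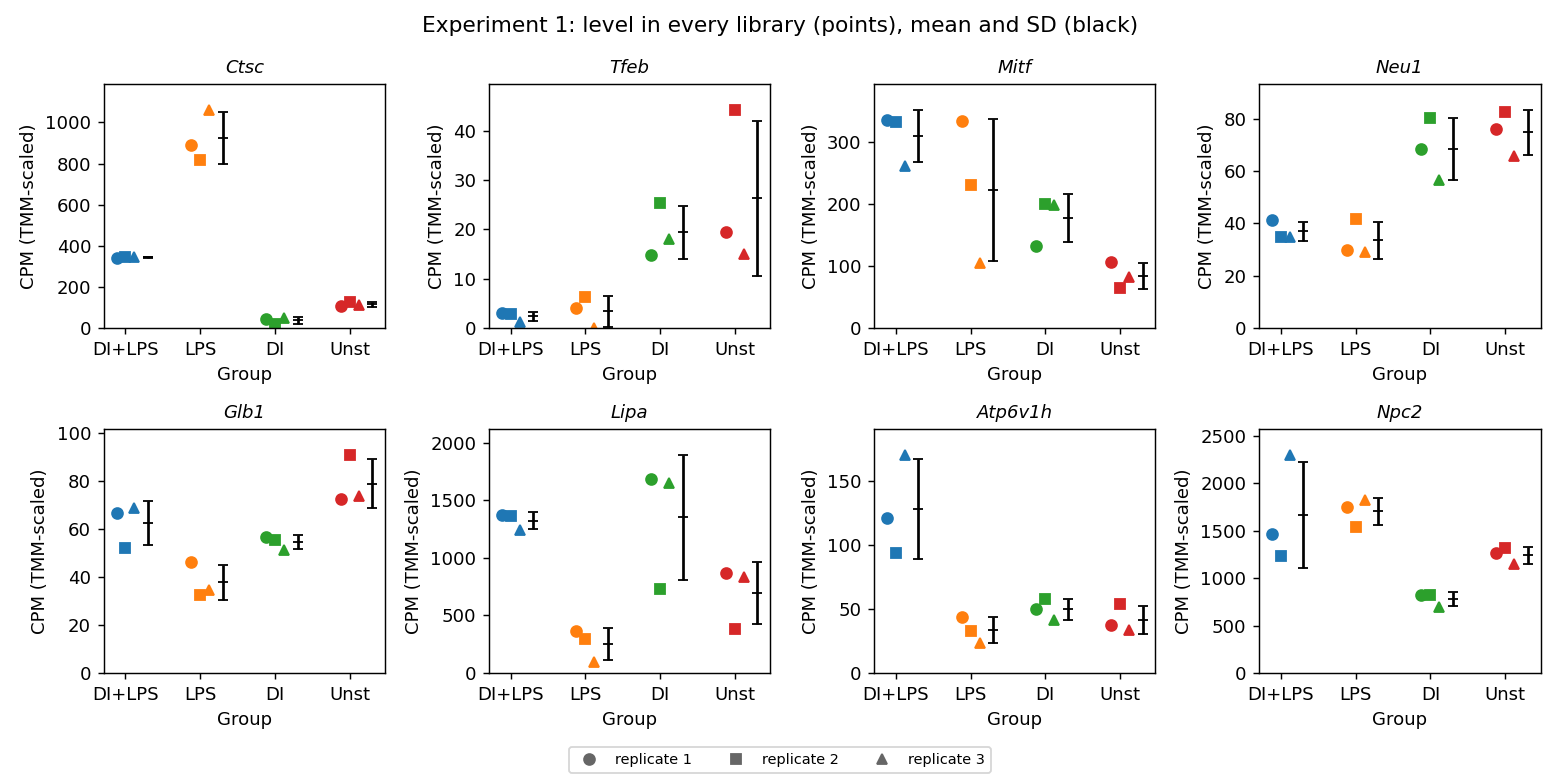
TMM-scaled CPM of 8 of the 37 genes (vertical axis, from 0) in every library of experiment 1, by group from DI+LPS on the left to Unst on the right, with the mean and SD of 3 libraries in black. Ctsc is at 817 CPM or more in the LPS libraries and at 127 CPM or less in the Unst libraries; Atp6v1h is highest in the DI+LPS libraries.

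Whether LPS changed a gene differently after the ester was given by the interaction, the log2 change of DI+LPS over DI minus that of LPS over Unst. No gene of the 37 was called by edgeR's test, while 2.91% of all genes were, 1.39% higher and 1.52% lower. At an unadjusted p under 0.05 there were 3 (8.11%), Atp6v1h, Glb1 and Lipa, against 18.1% of all genes. DESeq2 called 2 of the 37 higher, Atp6v1h and Glb1, beside 424 higher and 392 lower of all 10285 genes. The interaction was 1.63 ± 0.47 for Atp6v1h (adjusted p = 0.070), 1.25 ± 0.40 for Glb1 (adjusted p = 0.10) and 1.41 ± 0.61 for Lipa (adjusted p = 0.23). That of Ctsc was 0.23 ± 0.47 beside LPS effects of 3.24 after the ester and 3.01 after vehicle. The 4 comparisons of experiment 1 share groups, so their values stand side by side and are not independent of each other. Without LPS replicate 1 or LPS replicate 3, Atp6v1h was called (1 higher).

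The effect of losing Irg1 was given by Irg1-/- against WT libraries, both stimulated. Changes were small and mostly downward: 31 of 36 tested genes (26 with library totals) lay below 0, against 48.5% of all 9491 genes, with a median of -0.14 against 0.01. Without a term for replicate number, edgeR called 0 of the 36 (0.0632% of all genes were called, 0.0105% higher and 0.0527% lower), 4 (11.1%) had an unadjusted p under 0.05, against 7.01% of all genes, and DESeq2 called 0. In experiment 2 same-numbered libraries of the 2 genotypes deviated together, and with replicate number as a block 0 genes were higher and 8 lower, while 6.26% of all genes were called, 2.90% higher and 3.36% lower. They were Gpnmb, Cd63, Ctsd, Ctsl, Atp6v0d2, Ctsh, Cd68 and Ctsb. Ctsk, at 4 to 10 reads a library, was too low to be tested.

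Gpnmb (Entrez gene 93695, chromosome 6 from 49036518 to 49058182) was at 751, 658 and 913 CPM in Irg1-/- libraries, against 1248, 1205 and 1493 CPM in WT libraries. The groups did not overlap, and Gpnmb was lower in 3 of 3 pairs. The blocked fit gave log2 -0.77 ± 0.09, adjusted p = 4.1e-08, and the unblocked fit log2 -0.77 ± 0.19, adjusted p = 0.28. Cd63 was at 326, 437 and 448 CPM in Irg1-/- and 498, 553 and 638 CPM in WT libraries (blocked log2 -0.49 ± 0.10, adjusted p = 0.00052). Ctsd, the aspartyl protease, was at 1057, 1214 and 1125 CPM in Irg1-/- and 1559.8, 1472 and 1591 CPM in WT libraries (blocked log2 -0.45 ± 0.09, adjusted p = 0.00082). Each of these was lower in every pair, and these 3 were called in all 6 fits with a block. The 6 fits reuse the same libraries, with fewer residual degrees of freedom than the unblocked fit, and the pairing was taken from these data.

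Ctsl was at 523, 535 and 602 CPM in Irg1-/- and 764, 654 and 761 CPM in WT libraries (blocked log2 -0.39 ± 0.09, adjusted p = 0.0053). Atp6v0d2 was at 55.6, 68.5 and 118 CPM in Irg1-/- and 79.4, 90.1 and 173 CPM in WT libraries (blocked log2 -0.49 ± 0.12, adjusted p = 0.0065), with the highest level of either genotype in replicate 3. Ctsh was at 690.1, 956 and 1021 CPM in Irg1-/- and 1067, 1091 and 1252 CPM in WT libraries (blocked log2 -0.37 ± 0.09, adjusted p = 0.0096). Groups overlapped for Atp6v0d2 and not for Ctsl and Ctsh, and all 3 genes were lower in 3 of 3 pairs. Cd68 and Ctsb were also lower in 3 of 3 pairs, with blocked changes of -0.32 ± 0.10 and -0.27 ± 0.09 (adjusted p = 0.045 and 0.046). Their calls were lost in the 5 other fits with a block. Without replicate 3 the call of Ctsl was lost (adjusted p = 0.055) as was that of Atp6v0d2 (0.22), and without replicate 1 that of Ctsh (0.074). Lamp2 was called higher with the block when replicate 2 or replicate 3 was left out.

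In 6 of the 36 genes every Irg1-/- library lay below every WT library, and in 0 above, while 7.23% and 6.13% of all genes separated that way. Psap was among the 6 by a very narrow margin, 3856.27 CPM against 3856.94 CPM. By role, 4 of 9 tested proteases and 3 of 7 membrane proteins fell in the blocked fit, and 1 of 6 proton-pump genes, but none of the 6 glycosidases, the 5 lipid-handling genes or the 3 transcription factors. In the fit without a block, the medians by role were -0.27 for proteases, -0.21 for membrane proteins, -0.13 for the pump, -0.14 for glycosidases, -0.12 for lipid handling and 0.05 for transcription factors. In the same fit Tfeb stood at -0.16, Tfe3 at 0.05 and Mitf at 0.20. Ctsc, called in all 4 comparisons of 2 groups in experiment 1, was at 1148, 1433 and 1272 CPM in Irg1-/- and 1204, 1549 and 1213 CPM in WT libraries (log2 -0.04 ± 0.19, adjusted p = 0.99). Lipa and Atp6v1h stood at -0.01 and -0.12. Summed macrophage markers were 3383 to 3708 CPM in Irg1-/- and 3690 to 3709 CPM in WT libraries. Neutrophil markers summed to 97.7 to 113 CPM in Irg1-/- and 76.3 to 96.5 CPM in WT libraries without overlap, with Mpo, Prtn3 and Retnlg at 0 in both. The 11 osteoclast markers, which include Atp6v0d2, summed to 479 to 735 CPM in Irg1-/- and 361 to 597 CPM in WT libraries. Those ranges overlapped, with Calcr at 0 in both groups and Oscar at 0 in WT libraries. The part of these cells in the changes was not tested.

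**Figure D4:**
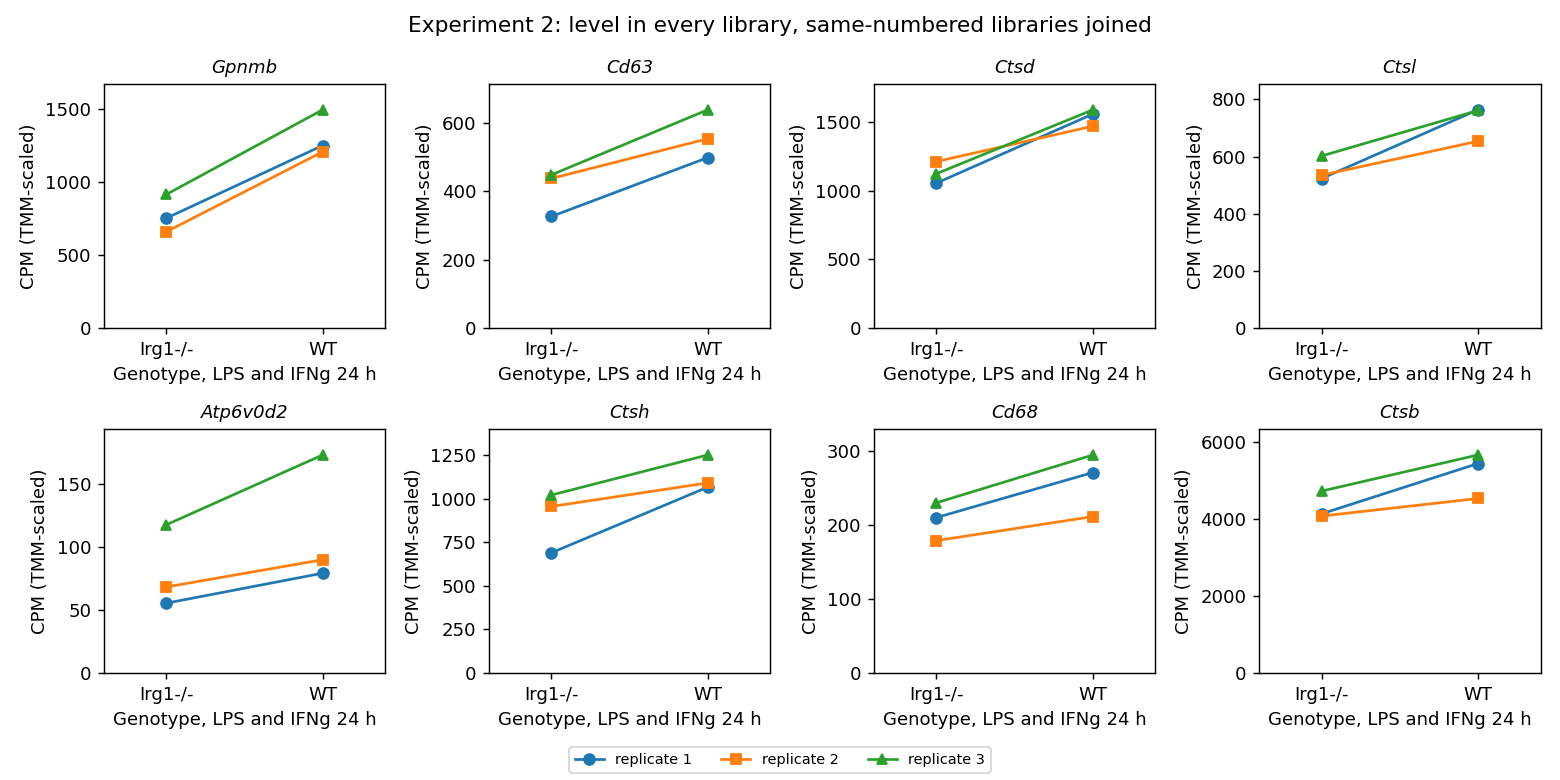
TMM-scaled CPM (vertical axis, from 0) of the 8 genes called in the fit with replicate number as a block, in Irg1-/- (left) and WT (right) libraries, with same-numbered libraries joined by a line. All lines rise towards WT, and Gpnmb is at 913 CPM or less in Irg1-/- libraries and at 1205 CPM or more in WT libraries.

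Some of the 37 varied between replicates as much as between groups. Lamp2, the membrane protein needed for fusion of autophagosomes, was at 851, 997 and 984 CPM in DI+LPS, 958, 4592 and 2331 CPM in LPS, 741, 794 and 2208 CPM in DI and 637, 5372 and 891 CPM in Unst libraries. In experiment 2 it was at 4993, 3172 and 1334 CPM in Irg1-/- and 2469, 2833 and 1449 CPM in WT libraries. A single library in several of these groups stood far above the others. Lamp2 was called in none of the 6 comparisons, but without Unst replicate 2 it was called higher with LPS. Grn was at 2027, 1884 and 7721 CPM and Cd63 at 1709, 1214 and 4538 CPM in LPS libraries, with replicate 3 the highest for both. Npc1, which overlaps Rmc1, ran from 332 to 1665 CPM within the LPS group. The LPS group had 11 of the 37 genes with an SD over 0.5 of the mean, against 0 in DI+LPS, 2 in DI and 4 in Unst libraries, and the median ratio of SD to mean was 0.257 for the 37 in LPS libraries and 0.606 for all genes tested.

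Genes that were called in few comparisons or none had these means and SDs over 3 libraries. Gusb averaged 82.7 ± 17.9 CPM in DI+LPS, 75.8 ± 5.09 CPM in LPS, 159.7 ± 18.2 CPM in DI and 135 ± 14.7 CPM in Unst libraries, so that both groups given LPS were below both without it. Hexa averaged 298 ± 35.9 CPM in DI+LPS, 331 ± 42.6 CPM in LPS, 334 ± 46.5 CPM in DI and 566 ± 116 CPM in Unst libraries, with the Unst group on top. Lamp1, the most abundant type of lysosomal membrane glycoprotein together with Lamp2, averaged 532 ± 35.9 CPM in DI+LPS, 385 ± 15.0 CPM in LPS, 463 ± 89.5 CPM in DI and 472 ± 29.5 CPM in Unst libraries, and no comparison called it. Psap averaged 6835 ± 1418 CPM in DI+LPS, 4461 ± 529.6 CPM in LPS, 6559.6 ± 731 CPM in DI and 5797 ± 775 CPM in Unst libraries, likewise with no call. Lgmn averaged 998 ± 299 CPM in DI+LPS, 1278 ± 178 CPM in LPS, 908 ± 170.2 CPM in DI and 1674 ± 374 CPM in Unst libraries; DESeq2 called it lower in DI over Unst libraries, as it did Hexa and Scarb2, and edgeR did not. In experiment 2 Psap averaged 3504 ± 426 CPM in Irg1-/- and 4141 ± 334 CPM in WT libraries and was not called (log2 -0.24 ± 0.18, adjusted p = 0.93). The groups all but touched, with the highest Irg1-/- library at 3856.27 CPM and the lowest WT library at 3856.94 CPM.

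Around the 37 genes, 175 others of the pathway were looked at in 8 lists, 157 of them tested in experiment 1. With LPS over Unst, 17 rose (10.8%) and 42 fell (26.8%), against 16.0% and 18.4% of all genes. Autophagy genes had 3 of 27 higher and 13 lower, and their median was -1.04. Gabarapl1, which coats autophagosomes, fell (log2 -2.26 ± 0.32, adjusted p = 2.4e-05), as did the initiating kinase Ulk1 (log2 -3.14, adjusted p = 0.00038) and the conjugation enzyme Atg7 (log2 -2.14, adjusted p = 0.00046). In the list of TFEB control genes, 2 of 25 rose and 5 fell. Tfec, a further relative of Tfeb, rose (log2 3.25 ± 0.39, adjusted p = 4.8e-06) and Flcn, folliculin, fell (log2 -2.94 ± 0.48, adjusted p = 0.00012). Other glycosidases and sphingolipid enzymes had 1 of 29 higher and 7 lower, led by Galc (log2 -2.80 ± 0.42, adjusted p = 5.0e-05).

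Other lysosomal membrane and transport proteins had 6 of 26 higher and 7 lower with LPS over Unst. The peptide transporter Slc15a3 rose (log2 2.14 ± 0.30, adjusted p = 2.3e-05), and the endolysosomal ion channel Tpcn1 fell (log2 -3.71 ± 0.39, adjusted p = 9.6e-07). Sorting and biogenesis genes had 2 of 27 higher and 6 lower, other proton-pump subunits 1 and 1 of 11, and other proteases 0 and 3 of 8. Of 4 tested cathepsin inhibitors 2 rose. Cst7, cystatin F, an inhibitor of Ctsc in the lysosome, had 145 counts in LPS libraries and 0 in Unst libraries, which is at least 176-fold higher when 3 counts over the Unst group are taken as the floor.

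With DI+LPS over LPS, 14 of the 157 rose (8.92%) and 6 fell (3.82%), against 8.38% and 7.53% of all genes. Autophagy genes had 7 of 27 higher and 2 lower: Sqstm1, the cargo receptor p62, rose (log2 2.86 ± 0.34, adjusted p = 2.5e-05), as did Gabarapl1 (log2 2.48 ± 0.32, adjusted p = 4.8e-05), and Atg16l1 fell (log2 -1.94 ± 0.44, adjusted p = 0.0058). The channel Mcoln2, a relative of Mcoln1, rose (log2 2.37 ± 0.37, adjusted p = 0.00030), and Cst7 fell (log2 -4.46 ± 0.93, adjusted p = 0.0042), as Ctsc did. With DI over Unst 1 rose (0.637%) and 0 fell by edgeR's test, against 1.33% and 1.51% of all genes. There DESeq2 called 5 and 4 of the 157, beside 303 and 351 of all 10285 genes. With DI+LPS over DI 10 rose (6.37%) and 19 fell (12.1%), against 11.4% and 7.56% of all genes. In the interaction 2 were higher (1.27%) and 0 lower, against 1.39% and 1.52% of all genes: Gabarapl1 (log2 2.16 ± 0.42, adjusted p = 0.0078) and the transporter Slc15a4 (log2 1.97 ± 0.45, adjusted p = 0.023). In Irg1-/- over WT 0 of 154 were called, and the block gave 3 higher (1.95%) and 8 lower (5.19%), against 2.90% and 3.36% of all genes. Sqstm1 (log2 -0.57 ± 0.09, adjusted p = 4.6e-05) and the mitophagy receptor Bnip3 (log2 -0.60 ± 0.10, adjusted p = 5.8e-05) were among the lower ones.

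The genes with CACGTG in the promoter window are set beside those without as a description. In LPS over Unst, 11 of 11 genes with it and 12 of 20 without it lay below 0, with medians of -0.60 and -0.38, while 1 with it was called (lower), and without it 2 higher and 6 lower. The 6 genes with no window were 6 of 6 below 0, with a median of -0.52. In DI+LPS over DI, 5 of 11 with it and 11 of 20 without it lay below 0, with medians of 0.04 and -0.06. In DI over Unst, 5 of 11 and 10 of 20 lay below 0, with medians of 0.026 and 0.005. In DI+LPS over LPS the medians were 0.12 with it and 0.13 without it. In Irg1-/- over WT, 11 of 11 with it and 14 of 19 without it lay below 0, with medians of -0.20 and -0.04, and 2 and 3 genes were lower in the fit with a block. The 6 genes with no window were again 6 of 6 below 0, with a median of -0.22 and 3 lower with the block.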

How the data were processed

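RNA was counted from the 3′ end; per the labels, barcoded oligo-dT primers and 12 PCR cycles were used and the libraries keep strand. The deposited values are raw counts per gene by Entrez identifier; the submitters' processing notes name STAR, HTSeq, DESeq2 and mm10 without versions, and the counting options are not given in the sources used here. Thus overlapping genes (Ctsa with Pltp and Neurl2, Glb1 with Tmppe, Npc1 with Rmc1) cannot be told apart with certainty. No molecular identifiers are described, and floors cover counting error only.

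Symbols and promoter windows came from RefSeq GRCm38.p6, which named 23969 of 24052 genes. Genes were tested per experiment in R 4.3.3 by edgeR 4.0.16 with TMM, filterByExpr (minimum count 10), a mean per group, a 2-sided quasi-likelihood F test and Benjamini-Hochberg adjustment over the 10285 and 9491 genes tested, with 8 and 4 residual degrees of freedom. Those are the degrees of freedom without a block, and the replicate block leaves fewer. Standard errors were derived from the F statistic. The test was checked on simulated counts. Alternatives were DESeq2 1.42.0, RLE factors, library totals, no filter, a replicate block, 2-group fits and leaving out each library; blocked fits of experiment 2 with DESeq2, with library totals or without a pair were added after seeing the data. Same-numbered libraries correlated in their deviations from group means in experiment 2 (0.354 to 0.455 in 3 of 3 pairs), which pairs them by the data and not by the labels, but not in experiment 1 (over 0.1 in 6 of 18).

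The 37 genes and all lists were chosen with earlier results of these data known. Named were all 37, up to 3 called genes of smallest p per wider list and comparison, and Acod1, Il6 and Prdx1 as checks. A result that this rule would name is not reported here.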

Additional observations from a re-analysis of the deposited data

Results flagged for a closer look

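Among the wider pathway lists, the effect of LPS after the ester differed from its effect after vehicle by the interaction test in Gabarapl1 and Slc15a4. These are 2 of 157 genes tested (1.27% higher, 0 lower), against 1.39% higher and 1.52% lower of all genes, so the count is near the background. Gabarapl1 was at 130.1, 104 and 123 CPM in DI+LPS libraries, 18.9, 16.3 and 32.7 CPM in LPS libraries, 128, 128 and 126 CPM in DI libraries and 96.7, 107 and 103 CPM in Unst libraries. The LPS libraries lay below all others, and the interaction was log2 2.16 ± 0.42, adjusted p = 0.0078 by edgeR's quasi-likelihood test, called in all 17 alternatives. Slc15a4 was at 64.0, 91.0 and 99.8 CPM in DI+LPS, 33.2, 40.5 and 23.6 CPM in LPS, 52.7, 66.6 and 39.0 CPM in DI and 72.3, 95.0 and 76.5 CPM in Unst libraries. Its interaction was log2 1.97 ± 0.45, adjusted p = 0.023 by the same test and was called in 10 of 17 alternatives, with a highest adjusted p of 0.077. No gene of the 37 was called in that test.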

How the results depend on the processing

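Numbers of the 37 genes called are given as higher and lower. For LPS over Unst (2 and 9), library totals gave 1 and 30, and a fit of only the 2 compared groups left 2 lower. Leaving out 1 library gave 1 to 3 higher and 3 to 9 lower. Under library totals Atp6ap1 stood at -1.004 (log2) in place of 0.05 and, of the wider lists, Atp6v1e1 at -0.014 in place of 0.95. For DI over Unst (0 and 1), DESeq2 gave 4 lower, the 2-group fit 1 higher, and leaving out 1 library 0 to 1 higher and 1 to 1 lower. For DI+LPS over LPS (2 and 1), DESeq2 gave 4 higher, no filter 3 lower, and leaving out 1 library 2 to 5 higher and 1 to 2 lower. For DI+LPS over DI (3 and 5), library totals gave 1 and 10, the 2-group fit 8 lower, and leaving out 1 library 1 to 4 higher and 1 to 7 lower. For the interaction (0 and 0), DESeq2 gave 2 higher, library totals 1, and leaving out 1 library 0 to 1. For Irg1-/- over WT (0 and 0), the replicate block gave 8 lower, the block with DESeq2 or library totals 6, and the block without a replicate 4 to 6 lower and 0 to 1 higher; without the block, leaving out 1 library gave 0 and 0. The cause of these shifts was not tested. In experiment 1, where the numbers are not shown to pair libraries, the replicate block gave 2 and 9, 0 and 1, 3 and 1, 3 and 5, and 0 and 0 in the same order.

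Counts over all genes also moved. LPS over Unst had 1641 higher and 1888 lower, 853 and 4950 with library totals, and 1250 and 858 with 2 groups. DI over Unst had 137 and 155, 303 and 351 with DESeq2, 72 and 194 with totals, 236 and 222 with no filter, 557 and 456 with 2 groups, and 61 to 454 and 75 to 349 without 1 library. DI+LPS over LPS had 862 and 774, 273 and 380 with 2 groups, and 499 to 1106 and 386 to 963 without 1 library. DI+LPS over DI had 1170 and 778, 1212 and 1395 with DESeq2, 1030 and 1014 with RLE factors, 709 and 2027 with totals, 1657 and 1539 with 2 groups, and 874 to 1556 and 451 to 1275 without 1 library. The interaction had 143 and 156, 424 and 392 with DESeq2, 215 and 86 with totals, 236 and 261 with no filter, and 52 to 346 and 78 to 460 without 1 library. Irg1-/- over WT had 1 and 5, 13 and 23 with DESeq2, 15 and 25 with no filter, 3 and 6 with totals, 275 and 319 with the block, 149 to 306 and 142 to 325 with the block without a replicate, 116 and 150 with the block in DESeq2, and 315 and 237 with the block and totals. Groups of 3 libraries, and low counts of Tfeb, Ctsk and Mcoln1 in LPS libraries, limit what could be detected.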
